A study of Rattus norvegicus with 10 samples.

Results

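Neutrophils are the short-lived phagocytes that leave the blood first when a tissue is injured, and 8 genes they are known for were followed here in rat liver after sulfur mustard (SM): S100a8, S100a9, Csf3r, Cxcr2, Mmp8, Mmp9, Fcnb and Itgam. The members were chosen by symbol. On the array the reference accession of each probe was matched to its gene, which gave 1 probe for each of the 8 genes, out of 41012 probes and 13837 named genes in all. Only 4 of the 8, S100a8, S100a9, Fcnb and Itgam, gave a signal well above the background of the array in every rat, and these 4 passed the filter on dim probes that 22991 probes of the whole array passed.

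Expression was measured in whole liver of male Sprague Dawley rats with a one-colour oligonucleotide microarray, 1 array per rat. Control rats (n = 3) received the solvent, propylene glycol. SM rats (n = 4) received a single subcutaneous dose of 3.5 mg/kg SM, a bifunctional alkylating blister agent, in the same solvent, which is 0.7 of the LD50. SM + MSTF rats (n = 3) received that dose and, 1 h later, 120 mg/kg MSTF by the intragastric route, MSTF being a mixture of plant compounds, the salvianolic acids of Salvia miltiorrhiza root with the flavonoid fraction of Anemarrhena asphodeloides. All livers were taken 24 h after SM. How the 3 or 4 livers per group were picked from the treated rats was not given in the sources used here.

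A neutrophil is built in the bone marrow under the growth factor G-CSF, which acts on the receptor encoded by Csf3r, and is drawn into tissue by chemokines acting on Cxcr2. It crosses the vessel wall with the help of the integrin CD11b/CD18 (Itgam and Itgb2), carries the calcium-binding proteins S100a8 and S100a9 (together calprotectin) in its cytosol, and stores proteases such as Mmp8 and Mmp9 in granules. In a healthy liver the resident Kupffer cells, which are macrophages, far outnumber neutrophils, and several of these genes are not restricted to neutrophils: monocytes also carry S100a8 and S100a9, and macrophages and natural killer cells also carry Itgam. In whole liver, fewer cells of a type and less RNA per cell cannot be told apart.

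The hepatocyte identity of the tissue was plain in its markers, since all 6 hepatocyte genes examined were well above background on every array, as were all 10 macrophage and Kupffer cell genes that had a probe. Between 51.9% and 61.4% of the probes were well above background on an array, and arrays of the same group correlated at r between 0.98 and 0.99. The 3 control arrays and SM + MSTF rat 3 shared 1 slide, the 4 SM arrays filled a separate slide, and SM + MSTF rats 1 and 2 were on the remaining one. A difference between SM and either other group therefore cannot be told apart from a difference between slides.

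The sequences upstream of the measured genes are shown for S100a9, Fcnb and Itgam. They are the 250 bases before the transcription start in RefSeq on the rat assembly GRCr8, in the direction of transcription. Capitals mark matches, on either strand, to GAGGAA (the core bound by PU.1, the myeloid transcription factor encoded by Spi1), TTGCNNAA (a C/EBP motif, for the factors that drive granulocyte genes) and TATAAA (the TATA box). The S100a9 window is chr2:178490623-178490872 (minus strand), the Fcnb window chr3:31800189-31800438 (minus strand) and the Itgam window chr1:192089342-192089591 (plus strand).
S100a9: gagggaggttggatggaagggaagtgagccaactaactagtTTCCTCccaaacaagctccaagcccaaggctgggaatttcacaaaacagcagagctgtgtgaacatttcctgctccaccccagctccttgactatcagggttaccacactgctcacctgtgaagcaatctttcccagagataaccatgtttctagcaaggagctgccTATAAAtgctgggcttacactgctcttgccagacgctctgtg
Fcnb: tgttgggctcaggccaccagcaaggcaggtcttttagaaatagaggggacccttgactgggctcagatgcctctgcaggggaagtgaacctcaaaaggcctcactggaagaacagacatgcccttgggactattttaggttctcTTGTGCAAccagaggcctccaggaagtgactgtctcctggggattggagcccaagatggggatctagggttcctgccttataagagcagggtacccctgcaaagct
Itgam: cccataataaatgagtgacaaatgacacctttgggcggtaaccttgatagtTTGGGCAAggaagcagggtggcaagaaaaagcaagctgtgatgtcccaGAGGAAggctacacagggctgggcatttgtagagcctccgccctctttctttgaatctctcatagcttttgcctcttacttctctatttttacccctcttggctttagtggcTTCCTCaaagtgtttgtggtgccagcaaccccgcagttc

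S100a9 held 1 GAGGAA match and a TATA box whose first base lay 42 bases before the start. Fcnb held 1 TTGCNNAA match and neither of the other motifs, and Itgam held 2 GAGGAA matches and 1 TTGCNNAA match. Such short motifs are common: over 33469 rat promoters of the same length, 23.3% held GAGGAA, 9.22% held TTGCNNAA and 12.9% held TATAAA. A match describes the letters only. Of the 8 genes, 6 were in the promoter table, and S100a8 and Mmp9 were not. S100a8 and S100a9 are next to each other on chromosome 2, with 0 annotated genes between them.

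S100a8 encodes the smaller subunit of calprotectin, which binds calcium and zinc and acts as an alarm signal when released. Its log2 signal, the quantile-normalized brightness of the probe, was 6.38, 7.59 and 7.02 in control rats 1 to 3. In SM rats 1 to 4 it was 9.30, 6.78, 6.68 and 8.24. In SM + MSTF rats 1 to 3 it was 8.65, 7.11 and 8.32. The SM group thus split into 2 rats above every control and 2 rats inside the control range, the highest SM rat being 6.18-fold above the lowest. In the SM + MSTF group rats 1 and 3 lay above every control and rat 2 within the control range, and all 3 groups overlapped.

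S100a9, the larger calprotectin subunit, followed the same order of rats closely. Its log2 signal was 7.35, 8.26 and 8.08 in control rats 1 to 3. It was 9.83, 7.36, 7.62 and 9.21 in SM rats 1 to 4. It was 8.77, 7.47 and 8.54 in SM + MSTF rats 1 to 3. SM rats 1 and 4 were the highest arrays of the series, SM rats 2 and 3 sat within the control range, and the groups overlapped.

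The means of both subunits were above control after SM, but by about as much as rats of a group differed. S100a8 averaged 7.0 ± 0.60 (SD, n = 3) in control, 7.75 ± 1.26 (n = 4) in SM and 8.03 ± 0.81 (n = 3) in SM + MSTF rats. The log2 difference from control was 0.75 (SE 0.65, 95% interval -0.70 to 2.20) in SM rats and 1.03 (SE 0.69, -0.52 to 2.58) in SM + MSTF rats, with limma adjusted p of 0.618 and 0.660. S100a9 averaged 7.90 ± 0.48, 8.51 ± 1.21 and 8.26 ± 0.69 in the same groups, 0.61 above control in SM rats (SE 0.60, limma adjusted p = 0.665) and 0.36 above it in SM + MSTF rats (SE 0.64, limma adjusted p = 0.879). SM + MSTF against SM gave 0.28 for S100a8 and -0.25 for S100a9, with limma adjusted p of 0.855 and 0.860. The interval for S100a8 in SM against control ran from a fold of 0.616 to 4.60, so these arrays allow anything from a lower level to a several-fold higher one.

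**Figure D1:**
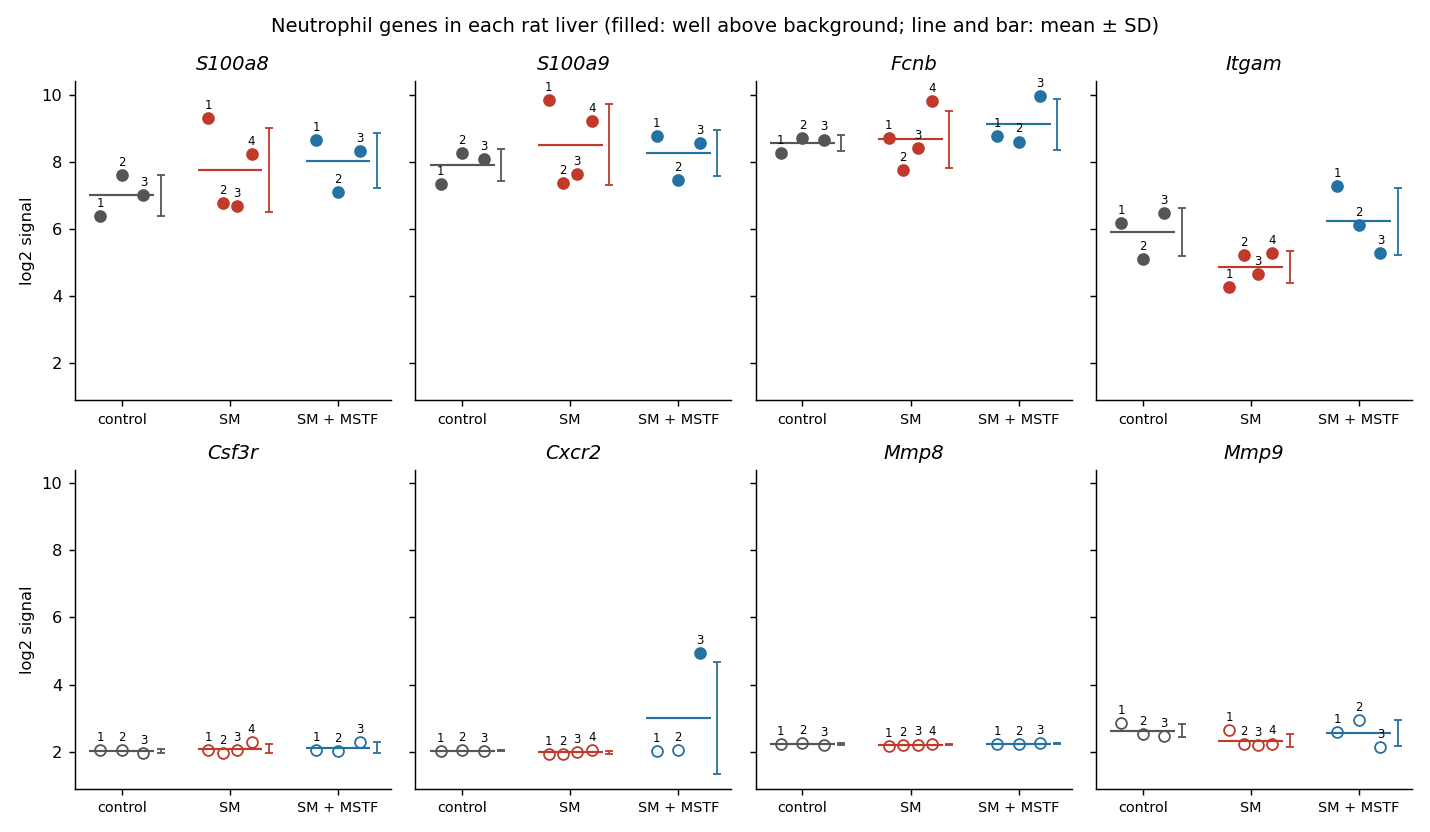
Log2 signal (y axis) of the 8 genes in each rat, by group (x axis); each point is 1 array numbered by rat, filled where the probe was well above background, and lines and bars show mean ± SD. S100a8, S100a9, Fcnb and Itgam are measured on all 10 arrays, whereas Csf3r, Mmp8 and Mmp9 stay below 3 and Cxcr2 is filled on 1 array at 4.95.

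Fcnb encodes ficolin-B, a pattern-recognition protein of the lectin complement pathway made by myeloid cells. Its log2 signal was 8.27, 8.72 and 8.66 in control rats 1 to 3. It was 8.71, 7.74, 8.42 and 9.80 in SM rats 1 to 4, and 8.76, 8.60 and 9.97 in SM + MSTF rats 1 to 3. SM rat 4 and SM + MSTF rat 3 stood more than 1 log2 unit above all other arrays, SM rat 2 was the lowest, and the groups overlapped. The mean was 8.55 ± 0.24 (SD, n = 3) in control, 8.67 ± 0.86 (n = 4) in SM and 9.11 ± 0.75 (n = 3) in SM + MSTF rats. The log2 differences were 0.12 (SE 0.46) for SM against control, 0.56 (SE 0.50) for SM + MSTF against control and 0.44 (SE 0.46) for SM + MSTF against SM, with limma adjusted p of 0.929, 0.743 and 0.650. Leaving out SM rat 4 turned the difference of Fcnb between SM and control to -0.26, and without SM + MSTF rat 3 its differences of SM + MSTF from control and from SM were 0.13 and 0.01.

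Itgam encodes the alpha chain of CD11b/CD18, the integrin with which myeloid cells bind endothelium and complement fragments, and its mean was lower, not higher, in SM than in control rats. Its log2 signal was 6.17, 5.09 and 6.46 in control rats 1 to 3. It was 4.28, 5.23, 4.65 and 5.27 in SM rats 1 to 4. It was 7.27, 6.11 and 5.29 in SM + MSTF rats 1 to 3. Control rat 2 lay within the SM range. All 3 SM + MSTF rats lay above all 4 SM rats, the closest being SM + MSTF rat 3 at 5.29 and SM rat 4 at 5.27. This order arose with normalization. In deposited intensity SM + MSTF rat 3 (40.98) was below SM rats 2 (41.12) and 4 (41.55). The lowest log2 signal that counted as well above background was between 3.77 and 4.17 on the SM arrays. SM rat 1, the highest rat for S100a8 and S100a9, was the lowest for Itgam.

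The mean of Itgam was 5.91 ± 0.72 (SD, n = 3) in control, 4.86 ± 0.48 (n = 4) in SM and 6.22 ± 0.99 (n = 3) in SM + MSTF rats. The log2 difference of SM from control was -1.05 (SE 0.48, 95% interval -2.13 to 0.02, a fold of 2.07 lower, limma adjusted p = 0.316). SM + MSTF was 1.37 above SM (SE 0.48, 0.29 to 2.45, a fold of 2.58, limma adjusted p = 0.223) and 0.32 above control (SE 0.51, limma adjusted p = 0.868). The SM + MSTF against SM difference passed an unadjusted 0.05 in limma but not the adjusted threshold. With normexp background correction in place of the deposited subtraction, these differences were smaller, -0.47 for SM against control and 0.66 for SM + MSTF against SM (limma adjusted p of 0.348 and 0.207). Within the shared slide SM + MSTF rat 3 differed from the mean of the 3 controls by -0.62, so the sign of SM + MSTF against control turned there. It turned as well without control rat 2 (-0.09) or SM + MSTF rat 1 (-0.21).

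None of the members was called changed, a call meaning a limma adjusted p under 0.05 and at least a 1.5-fold difference. In SM against control 0 of the 4 measured members were called, against 2.41% of all 22991 probes, and 0 were under an unadjusted 0.05 in limma, against 16.4% of all probes. In SM + MSTF against control 0 of 4 were called and 0 were under an unadjusted 0.05, where 0% and 9.54% of all probes were. In SM + MSTF against SM 0 of 4 were called and 1, Itgam, was under an unadjusted 0.05, where 1.26% and 15.9% of all probes were. The methods' t-test with its 1.5-fold minimum called 0 of the 4 in each comparison, before and after Benjamini-Hochberg adjustment. After normalization, groups did not overlap for 0, 0 and 1 of the 4 members in these comparisons, the last again Itgam. The shares of all probes were 18%, 15.4% and 14.7%.

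**Figure D2:**
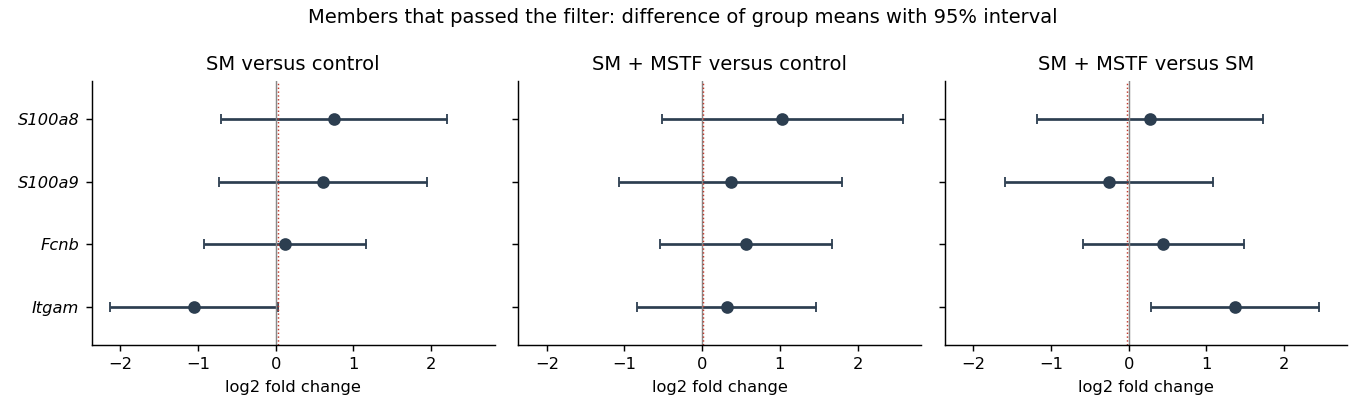
Difference of group means on the log2 scale (x axis) for the 4 measured members (y axis) in the 3 comparisons; points are limma estimates, bars are 95% intervals, the grey line marks 0 and the dotted line the median of all 22991 probes. The only interval that leaves out 0 is that of Itgam in SM + MSTF against SM, from 0.29 to 2.45.

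The other members could not be compared between groups. Csf3r, the G-CSF receptor, had a log2 signal between 1.96 and 2.30 over the 10 arrays and was not well above background on any. Mmp8, the neutrophil collagenase, lay between 2.18 and 2.26 and was likewise not well above background on any array. Mmp9, a gelatinase that neutrophils store in granules and other cells can induce, was printed as 10 spots per array and averaged between 2.15 and 2.94 without being well above background on any array. Single Mmp9 spots were bright on 2 arrays, 1 of 10 spots at an intensity of 90.4 on control rat 1 and 1 of 10 at 39.4 on SM + MSTF rat 2, and both were marked by the software as outliers among the spots of the probe.

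Cxcr2, the receptor for the chemokines that draw neutrophils out of the blood, was well above background in 1 rat only. Its log2 signal was 2.03, 2.04 and 2.02 in control rats, 1.94, 1.94, 1.99 and 2.05 in SM rats, and 2.02, 2.05 and 4.95 in SM + MSTF rats 1 to 3. The rat with the signal, SM + MSTF rat 3, was also the highest of the series for Fcnb. With 1 rat above background the probe did not enter the test.

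What the 4 measured members shared was a large spread between rats given the same treatment. The within-group SD of the log2 signal was 0.99 for S100a8, 0.91 for S100a9, 0.73 for Itgam and 0.70 for Fcnb, whereas the median over 22986 probes (those tested that had values from all arrays) was 0.20. S100a8 was thus more variable than 98.7% of these probes, S100a9 than 98.3%, Itgam than 96.9% and Fcnb than 96.6%. Against probes within 0.5 log2 units of their own mean signal they lay at the 99.2th, 98.9th, 94.9th and 97.6th percentile. The median SE of a log2 difference between SM and control was 0.15 over all probes, compared with 0.65 for S100a8.

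**Figure D3:**
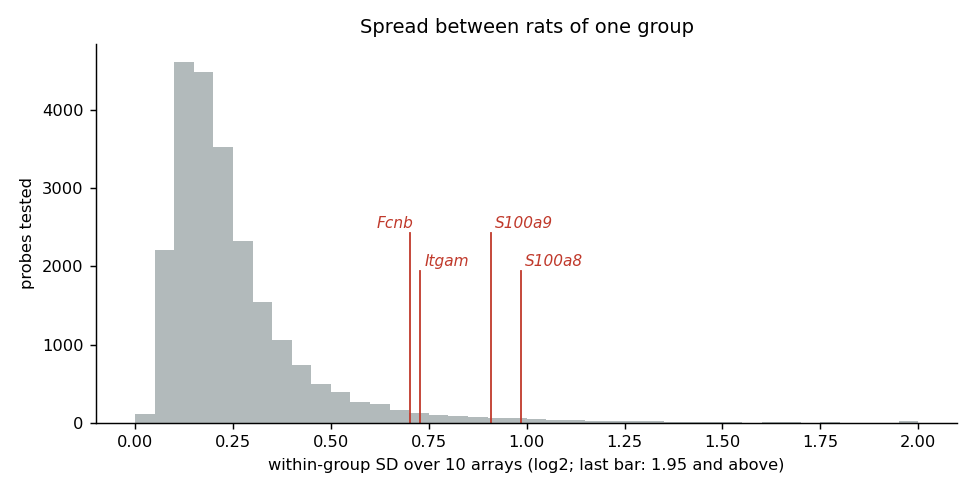
Number of tested probes (y axis) by their within-group SD of the log2 signal over the 10 arrays (x axis, bins of 0.05); red lines mark the 4 measured members. All 4 lie in the right tail, between 0.70 and 0.99, where the median probe is at 0.20.

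The rat-to-rat variation was shared by the calprotectin pair. Over the 10 arrays S100a8 and S100a9 correlated at Pearson r = 0.94 (permutation p = 0.00012, 0.00072 after Benjamini-Hochberg adjustment over 6 pairs of members) and Spearman rho = 0.90 (permutation p = 0.00098, adjusted 0.00588). Without the 2 rats farthest from the median of S100a8 r was 0.90, and after subtracting each group's mean it was 0.98. The 2 probes share the arrays, their labelling and their scaling.

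Fcnb followed the pair less closely, and Itgam did not follow it. For S100a8 and Fcnb r was 0.57 (permutation p = 0.0853, adjusted 0.171) and rho 0.79 (permutation p = 0.0083, adjusted 0.0166), and r was 0.91 without the 2 rats farthest from the median of S100a8. For S100a9 and Fcnb r was 0.59 (permutation p = 0.0739, adjusted 0.171), rho 0.82 (permutation p = 0.00558, adjusted 0.0166), and r without the 2 farthest rats 0.71. Itgam gave r of -0.15 with S100a8, -0.26 with S100a9 and -0.07 with Fcnb, with adjusted permutation p of 0.812, 0.703 and 0.851, rho of -0.08, -0.21 and 0.10 (adjusted permutation p = 0.837 for all 3), and r of -0.27, 0.33 and 0.19 without the 2 farthest rats. SM rat 1 shows the split most clearly, being highest for the S100 genes, near the mean for Fcnb at 8.71 and lowest for Itgam.

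Although the pair moved together, its subunits were not offset equally in all groups. The log2 signal of S100a9 minus that of S100a8 on the same array was 0.97, 0.67 and 1.06 in control rats, 0.53, 0.58, 0.95 and 0.97 in SM rats and 0.12, 0.36 and 0.22 in SM + MSTF rats. All 3 SM + MSTF rats were below all 7 other rats. This quantity was chosen after its values were seen. The mean in SM + MSTF rats minus that in SM rats was -0.52 (0.23 ± 0.12 against 0.76 ± 0.23, exact two-sided permutation p = 0.0571, 0.15 after adjustment over 3 comparisons) and minus that in control rats -0.66 (0.90 ± 0.20 in control, exact two-sided permutation p = 0.1, the smallest that 3 against 3 allows, adjusted 0.15). SM minus control was -0.14 (exact two-sided permutation p = 0.429). A difference between 2 probes says only that their signals did not change by the same amount.

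**Figure D4:**
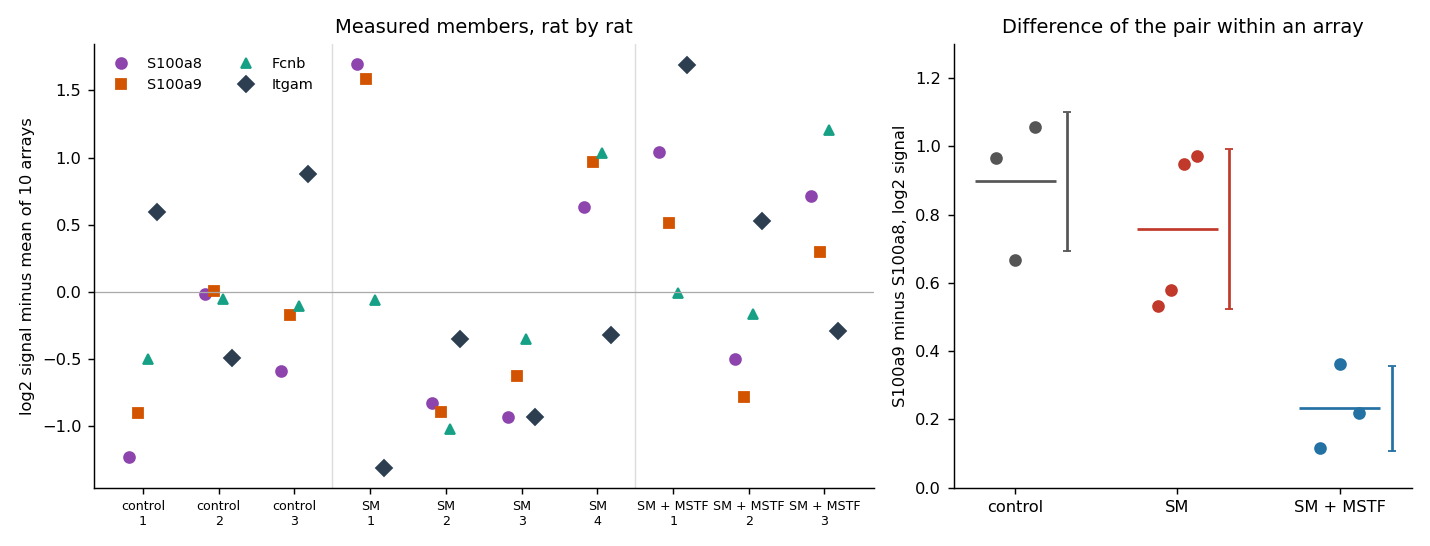
Left, log2 signal of S100a8, S100a9, Fcnb and Itgam in each rat minus the gene's mean over the 10 arrays; right, S100a9 minus S100a8 within each array by group, with mean ± SD. On the left S100a8 and S100a9 lie close together in each rat and Itgam apart from them, and on the right the 3 SM + MSTF rats, at 0.12 to 0.36, lie below all others.

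The genes whose pattern over the 10 arrays was most like the mean of the 4 standardized members, out of 9185 named genes with a value on every array, were Slc1a3 (r = 0.94), a glutamate transporter, Cpsf6 (0.90), an mRNA 3′-end processing factor, Vav1 (0.90), a signalling protein of blood cells, Tspo (0.89), a mitochondrial outer membrane protein, and C5ar1 (0.89), the receptor for the complement fragment C5a on neutrophils and macrophages. For the calprotectin pair alone the closest was Slc30a1 (r = 0.91), a zinc exporter. These are the highest of 9185 correlations over 10 arrays and carry no test.

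Other granule and secretory genes of neutrophils ranged from undetected to bright. Of 18 listed, 13 had a probe and 4 passed the filter. Between 4 and 9 of the 13 were well above background on an array, whereas Elane (neutrophil elastase), Bpi and Camp (antimicrobial proteins) were not well above background on any array. Np4, a neutrophil defensin, was nearly flat, from 8.20 to 8.79 over the 10 arrays. The other defensins of the list were not flat. The log2 signal of RatNP-3b was 4.54, 3.93 and 4.11 in control, 5.90, 5.32, 4.13 and 6.06 in SM and 5.23, 4.60 and 4.32 in SM + MSTF rats. That of Defa5 was 4.78, 2.59 and 2.63 in control, 5.72, 5.28, 2.27 and 6.32 in SM and 4.90, 2.35 and 3.66 in SM + MSTF rats. Both were highest in SM rats 4, 1 and 2 and well above background there but not in SM rat 3, so the groups overlapped and neither gene passed the filter to be tested. The log2 difference of SM + MSTF from SM was -0.64 for Prtn3 (the granule serine protease that is also called myeloblastin) and -0.42 for Pglyrp1, a peptidoglycan-binding protein of granules, with limma adjusted p of 0.30 and 0.27. None of the 4 was called in any comparison, with 0, 0 and 2 under an unadjusted 0.05 in limma, against 16.4%, 9.54% and 15.9% of all probes. The median log2 difference of the 4 was 0.31 for SM against control, -0.14 for SM + MSTF against control and -0.26 for SM + MSTF against SM, compared with 0.03, 0.00 and -0.02 over all probes.

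Lcn2 (lipocalin-2), an iron-siderophore binding protein that neutrophils carry in granules and hepatocytes secrete in the acute phase, had the widest range of these genes. Its log2 signal was 8.05, 8.93 and 7.55 in control rats, 9.51, 8.13, 7.48 and 12.42 in SM rats and 14.47, 9.05 and 8.29 in SM + MSTF rats. SM + MSTF rat 1 and SM rat 4, both among the 4 highest rats for S100a8 and S100a9, stood far above the rest, whereas SM rat 1, the highest for calprotectin, was at 9.51. The log2 difference of SM from control was 1.21 (SE 1.52, limma adjusted p = 0.749) and that of SM + MSTF 2.43 (SE 1.63, limma adjusted p = 0.659).

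Among surface receptors and subunits of the NADPH oxidase, which neutrophils share with monocytes and macrophages, values were lower in SM and higher in SM + MSTF rats. Of 27 listed genes 23 had a probe and 14 passed the filter. In SM against control 13 of the 14 were lower (median -0.14), where 55.9% of all probes were higher. In SM + MSTF against SM 13 of the 14 were higher (median 0.35), where 46.4% of all probes were. None was called, and 3, 0 and 4 of the 14 were under an unadjusted 0.05 in limma for SM against control, SM + MSTF against control and SM + MSTF against SM. The shares of all probes under it were 16.4%, 9.54% and 15.9%.

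Itgb2, the CD18 chain with which the product of Itgam pairs, differed from control by -0.37 in SM rats (SE 0.16, limma adjusted p = 0.283) and from SM by 0.31 in SM + MSTF rats (SE 0.16, limma adjusted p = 0.363). Itgal, the alpha chain of the lymphocyte integrin LFA-1 that pairs with the same partner, differed by -0.72 between SM and control (limma adjusted p = 0.267). It differed by 0.95 between SM + MSTF and SM rats (limma adjusted p = 0.181). Itgal was not well above background in control rat 1 and SM rats 1 and 3. Tlr2, a sensor of bacterial lipopeptides, differed by -0.45 between SM and control rats (limma adjusted p = 0.18). Trem1, an amplifier of myeloid activation, was 0.77 higher and Cybb, the catalytic subunit of the oxidase, 0.53 higher in SM + MSTF than in SM rats (limma adjusted p of 0.306 and 0.243). The receptors Cxcr1 and Fpr1, which like Cxcr2 are characteristic of neutrophils, were not well above background on any array.

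The transcription factors of granulocyte development gave 6 measured genes of 8 listed, with 0 called and 0, 1 and 0 under an unadjusted 0.05 in limma, against 16.4%, 9.54% and 15.9% of all probes. The 1 was Cebpb, the C/EBP factor of emergency granulopoiesis and of the hepatic acute phase, which was 0.88 above control in SM + MSTF rats (SE 0.29, limma adjusted p = 0.424) and 0.57 above it in SM rats (SE 0.27, limma adjusted p = 0.339). Spi1, which encodes PU.1, differed from control by -0.17 in SM and 0.23 in SM + MSTF rats (limma adjusted p of 0.813 and 0.828).

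Ligands that call neutrophils into tissue were mostly detected on some arrays only or on none. Of 8 listed, 6 had a probe and only Cxcl1, a ligand of Cxcr2, passed the filter, while Csf3 (G-CSF itself), Cxcl6 and Il17a were not well above background on any array. Cxcl2 was well above background in control rats 2 and 3 (5.67 and 4.47) and SM rat 4 (5.34). It was so too in SM + MSTF rats 2 and 3 (5.06 and 5.22). Ppbp was well above background in control rat 2 and SM rat 4 only. Cxcl1 had a log2 signal of 8.95, 11.04 and 9.44 in control, 9.87, 10.80, 7.80 and 8.36 in SM and 7.37, 8.76 and 12.52 in SM + MSTF rats. Its highest value fell in SM + MSTF rat 3, the rat in which Cxcr2 was detected, and its lowest in SM + MSTF rat 1, which had high calprotectin. The log2 difference of SM from control was -0.60 (SE 1.17, limma adjusted p = 0.848).

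The partners of the other members gave no call either. For CD11b/CD18, 8 genes were listed and all were measured. They were its chain Itgb2, given above and with the largest fall of the list after SM, and counter-receptors and ligands. Icam2 on endothelium differed from control by -0.33 in SM rats (SE 0.13, limma adjusted p = 0.225) and Icam1 by -0.12 (limma adjusted p = 0.851). All 7 measured relatives and receptors of the S100 proteins were above 0.05 before adjustment in the 3 comparisons, Tlr4, a receptor for calprotectin, being 0.62 higher in SM + MSTF than in SM rats (limma adjusted p = 0.382). Of the lectin pathway, 5 genes were measured with 0 under an unadjusted 0.05 in limma, and Fcna, the ficolin of Kupffer cells related to Fcnb, ranged only from 10.11 to 10.72 over the 10 arrays.

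Among the protease partners 7 of 9 listed were measured and none was called. Mmp12, the macrophage elastase, differed most. Its log2 signal was 4.73, 6.25 and 4.68 in control rats, 3.1, 3.88, 4.02 and 3.51 in SM rats, none of these well above background, and 5.11, 5.02 and 5.18 in SM + MSTF rats. The SM group lay below every other array. It was at least 2.35-fold lower in SM than in control rats (limma adjusted p = 0.0535) and at least 2.16-fold higher in SM + MSTF than in SM rats (limma adjusted p = 0.0988), both bounds being set against the lowest signal that counted as above background.

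**Figure D5:**
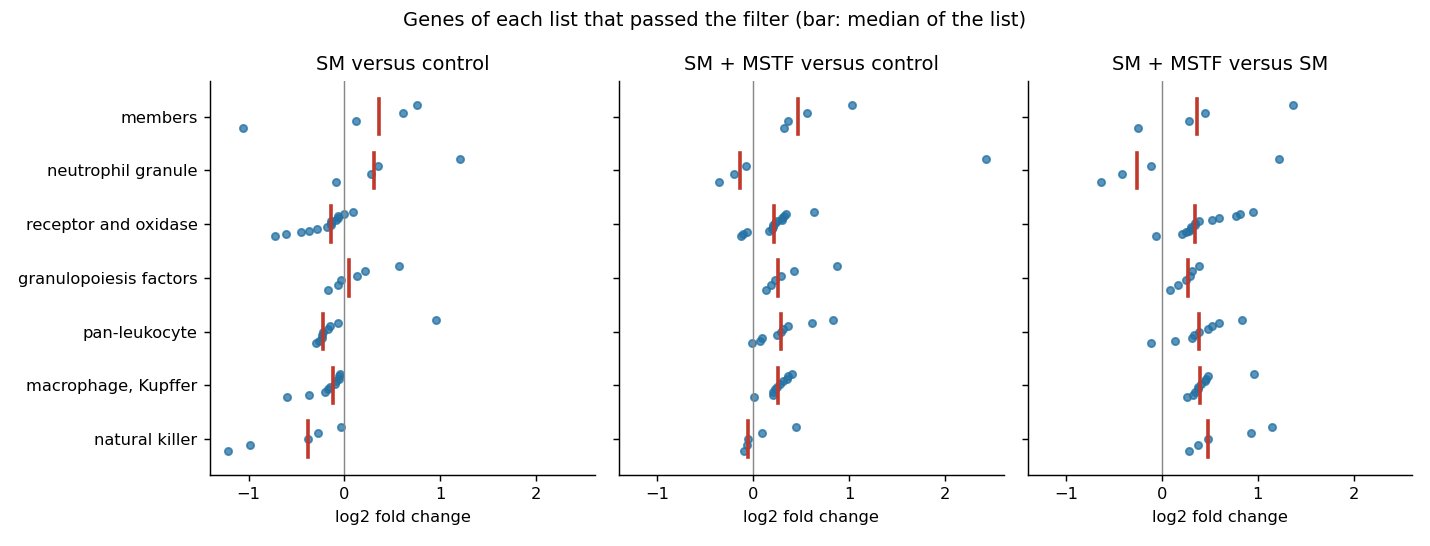
Log2 fold change (x axis) of each gene that passed the filter, by gene list (y axis), in the 3 comparisons; each point is 1 gene and the red bar the median of the list. The 10 macrophage and Kupffer cell genes lie left of 0 in SM against control and right of 0 in both comparisons of SM + MSTF, as do most receptor and oxidase and pan-leukocyte genes.

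Among markers of other leukocytes, macrophage and pan-leukocyte genes mostly had the signs of the receptor genes and Itgam in SM against control and in SM + MSTF against SM. The B cell and natural killer genes measured had these signs as well. The monocyte, T cell, and eosinophil and mast cell lists were mixed. All 10 macrophage and Kupffer cell genes measured were lower in SM than in control rats (median -0.12), and all 10 were higher in SM + MSTF than in control (0.26) and SM rats (0.39). None was called, and 0, 0 and 4 were under an unadjusted 0.05 in limma, against 16.4%, 9.54% and 15.9% of all probes. Over all probes 55.9%, 50.9% and 46.4% were higher in SM against control, SM + MSTF against control and SM + MSTF against SM. Marco, a scavenger receptor of macrophages, differed from control by -0.60 in SM rats and from SM by 0.96 in SM + MSTF rats (limma adjusted p of 0.315 and 0.147). The log2 of the summed linear signal of these genes, in which the brightest probes weigh most, ranged from 16.76 to 17.11 in control, 16.14 to 17.06 in SM and 16.84 to 17.17 in SM + MSTF rats. Pan-leukocyte genes were lower in SM for 8 of 9 and higher in SM + MSTF than in SM for 8 of 9, with medians of -0.22 and 0.38 and none called. The log2 of their summed linear signal ranged from 14.93 to 15.19 in control, 14.42 to 15.48 in SM and 15.22 to 15.54 in SM + MSTF rats. Of the monocyte genes measured 2 were higher and 2 lower in SM than in control, and all 4 were higher in SM + MSTF than in SM rats. Of 5 T cell genes 4 were lower in SM than in control and 3 higher in SM + MSTF than in SM rats. Both B cell genes measured were lower than control in SM rats (-2.18 for Cd79b and -0.72 for Blnk) and in SM + MSTF rats. These 2 genes were 0.79 and 0.04 higher in SM + MSTF than in SM rats, and neither was called in any comparison. Cd79b was not well above background in SM rats 1 and 4 and SM + MSTF rat 2. Nor was Blnk in SM rat 2 and SM + MSTF rats 1 and 3. The B cell differences thus rest partly on undetected values. Of the 2 eosinophil and mast cell genes 1 was higher in SM than in control, and both were lower in SM + MSTF than in SM rats. The part of these cells in the Itgam values was not tested.

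Natural killer cells, which also carry CD11b, gave 1 called gene of 5 measured, with the signs of Itgam. Of all probes, 2.41% were called in SM against control and 1.26% in SM + MSTF against SM. Over the 10 arrays Itgam correlated at r = 0.13 with the mean of the 5 natural killer genes. After subtracting group means r was -0.38. Klrd1, the CD94 receptor chain, fell by 1.22 on the log2 scale in SM rats (SE 0.23, limma adjusted p = 0.0277). It was 1.15 above SM in SM + MSTF rats (SE 0.23, limma adjusted p = 0.0455), with all 4 SM rats below every other rat. Groups did not overlap for 18% of all probes in SM against control and for 14.7% in SM + MSTF against SM. The Klrd1 signal in SM rats 2 and 3, 3.64 and 4.30, was not well above background, so its differences rest partly on undetected values. All 5 natural killer genes measured were lower in SM than in control (median -0.38) and higher in SM + MSTF than in SM rats (median 0.48). Prg2, the major basic protein of eosinophils, rose in SM rats by 0.99 (SE 0.18, limma adjusted p = 0.0247). All 3 calls were lost with slide as a random block, where the limma adjusted p was 0.0912 and 0.102 for Klrd1 and 0.0802 for Prg2. With normexp correction the log2 differences were -0.37 and 0.30 for Klrd1 and 0.54 for Prg2, none reaching 1.5-fold with an adjusted p under 0.05 in limma. The calls also depended on single arrays. The Klrd1 call in SM against control was lost without any 1 of control rats 1 to 3 or SM rats 1 and 3 (limma adjusted p between 0.0130 and 0.110 over the 10 arrays left out in turn), and the Prg2 call was lost without any 1 of the control or SM rats (0.00405 to 0.0909). The Klrd1 call in SM + MSTF against SM was kept only without SM rat 2 (0.0408 to 0.112). Neither gene's part in the values of the 8 members was tested.

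Within the treatment groups, members differed in how closely they followed other genes. After subtracting group means, Fcnb correlated over the 10 arrays at r = 0.93 with the mean of the 14 receptor and oxidase genes, at 0.80 with that of the 9 pan-leukocyte genes and at 0.77 with that of the 10 macrophage and Kupffer cell genes. For S100a8 these were 0.49, 0.24 and 0.33, for S100a9 0.62, 0.38 and 0.50, and for Itgam -0.09, -0.14 and 0.17. With the mean of the 4 granule genes r was 0.68 for Fcnb, 0.72 for both S100a8 and S100a9 and -0.31 for Itgam. With that of the 5 natural killer genes it was 0.90 for Fcnb, 0.14 for S100a8, 0.27 for S100a9 and -0.38 for Itgam. Fcnb also correlated at 0.82 with the 4 monocyte and at 0.62 with the 5 T cell genes. Its r was 0.11 with the 4 erythroid and -0.46 with the 6 hepatocyte genes. The difference between these correlations was not tested, and all of them share the arrays and their scaling. SM rat 2, lowest for Fcnb, was also the lowest of the series for the log2 of the summed linear signal of the pan-leukocyte genes, at 14.42.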

How the data were processed

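Liver RNA of 10 rats was hybridised to an Agilent whole rat genome array, and the authors read the slides with Feature Extraction 10.7. The deposited files give each spot's background-subtracted intensity with marks for spots well above background, and the deposited value table gives the authors' log2 values (quantile-normalized per the methods), used as an alternative. Here the deposited intensity was quantile-normalized over the 10 arrays without control and non-uniform spots, taken to log2 and averaged per probe. A probe was tested where it was well above background on every array of a group. limma 3.58.1 (R 4.3.3) fitted 1 model with 3 contrasts, with Benjamini-Hochberg adjustment over 22991 probes, and a call needed an adjusted p under 0.05 and 1.5-fold. The number of arrays limits the precision, and intensities carry no counts. Probes were named by accession through RefSeq (17512 of 41012). For a listed gene with several probes the brightest was used. Of 157 further entries in gene lists, 133 had a probe and 98 were tested. The genes named were those called, some of those farthest up or down after SM in their lists, and others chosen after their values were seen. Members and lists were chosen with earlier results of these data known. Upstream sequences came from RefSeq (GRCr8). Alternatives were 75th percentile scaling, the deposited values, normexp correction (offset 50), other filters, the methods' t-test, blocks for slide or replicate number, and leaving out each array. The fit was tested on simulated data.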

Additional observations from a re-analysis of the deposited data

Results flagged for a closer look

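In the SM group of 4 rats, 1 rat lay far from the other 3 for 2 of 33 values examined, where chance alone marks about 1 in 20 groups. For Mmp9 it was SM rat 1, at a log2 signal of 2.64 beside 2.23, 2.21 and 2.24, the gap being 0.923 of the whole range. No array of that group was well above background. The median intensity of the 10 Mmp9 spots was 3.91 in SM rat 1, beside 3.56, 4.13 and 4.54 in SM rats 2 to 4. Its highest spots were at 14.6 and 15.1, and 1 of its spots was marked as an outlier. For Itgal it was SM rat 4, at 5.16 beside 4.07, 4.25 and 4.14, the gap being 0.837 of the range. SM rats 1 and 3 were not well above background for Itgal.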

How the results depend on the processing

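The count of members called changed was 0 in SM against control and in SM + MSTF against control under every alternative run. In SM + MSTF against SM it was 0 except with limma's unadjusted p and the fold minimum, which gave 1, Itgam. Leaving out each array gave 0 to 0 in every comparison. Of 160 member fold changes under the other alternatives 2 turned sign: Fcnb for SM against control was -0.26 with the replicate number as a block (the block drops SM rat 4, the only rat with that number), and Itgam for SM + MSTF against control was -0.62 within the shared slide. Samples of the same number deviated together at r from -0.10 to 0.17 only, so the numbers were not taken to pair rats, and the replicate block called 0 members in each comparison.

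Leaving out 1 array turned 9 of 120 fold changes. For SM against control, leaving out 1 array gave Fcnb from -0.26 without SM rat 4 to 0.43 without SM rat 2 (-0.02 without control rat 1), S100a8 from 0.23 without SM rat 1 to 1.11 without SM rat 3, and S100a9 from 0.17 without SM rat 1 to 1.00 without SM rat 2. For SM + MSTF against control Itgam ran from -0.21 without SM + MSTF rat 1 to 0.78 without SM + MSTF rat 3 (-0.09 without control rat 2). For SM + MSTF against SM, S100a8 ran from -0.081 without SM rat 3 to 0.80 without SM rat 1 (-0.05 without SM rat 2 and -0.03 without SM + MSTF rat 1), S100a9 from -0.63 without SM rat 2 to 0.19 without SM rat 1 (0.15 without SM + MSTF rat 2), and Itgam from 0.85 without SM + MSTF rat 1 to 1.84 without SM + MSTF rat 3. The cause of these turns was not tested. The Klrd1 and Prg2 calls in SM against control were lost under 5 of 12 and 3 of 13 other alternatives, slide as a random block and the replicate block among them for both, and the Klrd1 call in SM + MSTF against SM under 7 of 12, each in the same direction. For SM + MSTF against control, where neither was called, Klrd1 was 0.33 and Prg2 -0.035 within the shared slide, both turned, and leaving out 1 array gave Klrd1 from -0.27 without SM + MSTF rat 3 to 0.076 without SM + MSTF rat 1. The S100a9 minus S100a8 difference of SM + MSTF from SM stayed between -0.60 and -0.42 in 13 alternatives. That difference and its alternatives were chosen after seeing the data, as was leaving out spots marked as population outliers. Averaging several probes of a gene could not be run, since each member has 1 probe, and slide as a fixed block could be run only for SM + MSTF against control. Csf3r, Cxcr2, Mmp8 and Mmp9 had no group in which every array was above background, so absence of a difference cannot be read from them.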
